A study of Drosophila melanogaster with 2 samples.

Results

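The small nuclear RNA genes of Drosophila melanogaster are those whose annotated symbol starts with snRNA:, and 32 of the 18277 annotated genes on the 7 chromosome arms, transposable elements aside, carry such a symbol. They were examined as sites of Pumilio (Pum) on chromatin, in ChIP-seq of embryos aged 0 to 24 h from the strain Pum-MiMIC-GFP. In this strain an eGFP exon inserted in an intron of pum makes the gene encode a Pum-GFP fusion, and the precipitation used an antibody to GFP. Whole embryos of both sexes were pooled, so all embryonic tissues were mixed, and chromatin had been sonicated to 200 to 800 bp. The study has 1 group with 2 biological replicates, numbered 2 and 3, and no second condition, so the comparisons are between genes, U classes and lists. Control precipitations were not analysed here, and no value measured without the tagged protein stands beside those given. Of the 32 genes, 28 belong to spliceosomal U classes. The remaining 4 do not: U7 acts on histone pre-mRNA, 7SKa and 7SKb are annotated as 7SK RNA genes, and LU is annotated as an snRNA gene of no U class.

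Spliceosomal snRNAs are short, abundant, non-polyadenylated RNAs that bind proteins to form snRNPs. U1 pairs with the 5′ splice site and U2 with the branch point, and U4, U6 and U5 then join as a tri-snRNP in which U6 helps to form the catalytic centre. U11, U12, U4atac and U6atac take the corresponding places in the minor spliceosome. U7 directs 3′ end processing of replication-dependent histone mRNAs, and 7SK RNA holds the elongation kinase P-TEFb inactive. Most of these genes are transcribed by RNA polymerase II and processed by the Integrator complex, whereas the U6, U6atac and 7SK genes are transcribed by RNA polymerase III. Both kinds of promoter carry a proximal sequence element, the site of the factor SNAPc. Pum is known as an RNA-binding translational repressor of cytoplasmic mRNAs.

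The starts of the genes on which the results turn are shown first. Copies of U1 and of U6 were 98.2% to 100% identical in the RNA and at most 67.6% identical upstream. Copies of U2 were similarly alike in the RNA, at 98.4% to 100%, and up to 90% identical upstream. The remaining classes with more than 1 gene were less alike in the RNA, down to 73.8% for U4, 78.3% for U5 and 49.7% for the 7SK pair. Each line gives 75 bases before the start and the first 25 bases of the gene, 5′ to 3′ on the gene's own strand, from RefSeq's Release 6 assembly, which is dm6. Capitals mark the 8 letters ATTCNCAA, a core of the proximal sequence element that a text search found. U1:21D, U1:95Ca, U4:39B, U6:96Ab, U6:96Ac and 7SKa are the 6 genes with a summit in the authors' optimal list. U1:95Cb and U1:82Eb are U1 copies without one. 7SKb, also without one, shares the class with 7SKa by its annotated name. The lines below are those of the U1, U4 and 7SK genes among them.
snRNA:U1:21D, chr2L:901630-901729, minus strand: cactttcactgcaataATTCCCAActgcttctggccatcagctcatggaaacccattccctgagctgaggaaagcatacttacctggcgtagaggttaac
snRNA:U1:95Ca, chr3R:23859606-23859705, minus strand: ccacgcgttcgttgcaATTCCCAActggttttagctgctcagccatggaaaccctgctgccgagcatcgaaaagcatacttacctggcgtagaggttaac
snRNA:U1:95Cb, chr3R:23827795-23827894, plus strand: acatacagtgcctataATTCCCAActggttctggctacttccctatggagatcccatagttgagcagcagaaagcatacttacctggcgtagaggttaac
snRNA:U1:82Eb, chr3R:4948072-4948171, minus strand: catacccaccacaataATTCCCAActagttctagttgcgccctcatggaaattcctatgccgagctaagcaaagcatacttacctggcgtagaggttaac
snRNA:U4:39B, chr2L:21215154-21215253, minus strand: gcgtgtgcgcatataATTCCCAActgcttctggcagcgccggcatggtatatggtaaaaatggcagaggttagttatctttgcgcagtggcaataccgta
snRNA:7SKa, chr3R:7474972-7475071, minus strand: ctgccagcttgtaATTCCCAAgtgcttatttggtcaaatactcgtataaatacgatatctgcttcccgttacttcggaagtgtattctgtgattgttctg
snRNA:7SKb, chr3R:23432794-23432893, plus strand: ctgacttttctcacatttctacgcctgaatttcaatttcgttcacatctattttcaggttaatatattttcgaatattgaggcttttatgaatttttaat

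The RNA of U1 is shown whole because several copies cannot be told apart by sequence. The capitals mark the stretch that pairs with the 5′ splice site. U1:21D, U1:95Ca and U1:95Cb had the same 164 bases, U1:95Cc differed from U1:95Ca at 1 base and U1:82Eb at 2. The 3 U6 genes had the same 107 bases.
snRNA:U1:95Ca RNA gene, chr3R:23859467-23859630, minus strand: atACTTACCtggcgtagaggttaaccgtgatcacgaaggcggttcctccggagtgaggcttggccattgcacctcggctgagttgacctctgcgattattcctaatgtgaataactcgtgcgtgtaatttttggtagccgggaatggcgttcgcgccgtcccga

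The data are lists of regions with a summit and a signal for each, on the dm6 build. The signal is the authors' own score of a region and ranks regions within 1 list, so it was not compared between lists. The optimal list, which passed the authors' threshold of reproducibility between replicates, held 3816 summits once neighbours closer than 250 bp were reduced to the strongest, with signals from 80.4 to 2369 and a median of 136. The pooled list, which also holds background regions, had 24209 summits with signals from 23.2 upward and a median of 34. The list of replicate 2 had 28005 summits (median signal 19.4) and that of replicate 3 had 27103 (median 17.2). No read counts are in these files, so the sequencing depth is unknown. A gene was counted where a summit lay within 500 bp of its start. In the optimal list this held for 6 of the 32 genes (18.8%, 95% Wilson interval 8.89 to 35.3%), beside 15.3% of the 18245 other annotated genes and 18.6% of protein-coding genes. The 6 genes held 5 distinct summits, because U6:96Ab and U6:96Ac share 1 and are not independent. The pooled list gave 14 genes with a summit (43.8%), beside 42.2% of other genes. In replicate 2 it was again 14 genes, beside 39.9%, and in replicate 3 also 14, beside 47.1%. Each snRNA share was therefore near that of annotated genes at large, and the intervals, which cover counting error only, include the background in every list. Of the 28 spliceosomal genes alone, 5 had an optimal summit (17.9%) and 12 had one in each of the other 3 lists.

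**Figure D1:**
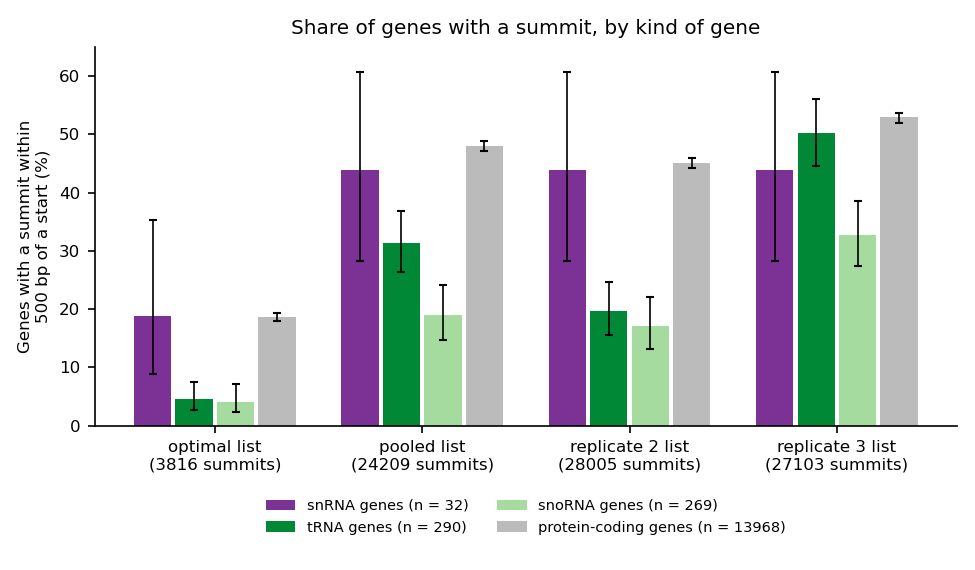
Share of genes with a summit within 500 bp of a start, in percent, for snRNA, tRNA, snoRNA and protein-coding genes in each of the 4 lists; the error bars are 95% Wilson intervals and the number of genes is in the legend. In the optimal list snRNA genes stood at 18.8% and protein-coding genes at 18.6%, while tRNA genes stood at 4.48% and snoRNA genes at 4.09%.

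Among the other short non-coding genes the shares were lower in the optimal list, at 4.48% of 290 tRNA genes (Wilson interval 2.64 to 7.52%) and 4.09% of 269 snoRNA genes (2.3 to 7.17%). Within the pooled list tRNA genes stood at 31.4% and snoRNA genes at 19%, against 43.8% of snRNA genes. In replicate 2 they stood at 19.7% and 17.1%. In replicate 3 the order of snRNA and tRNA genes was the other way round, with 50.3% of tRNA genes and 43.8% of snRNA genes. These differences were not tested, and the snRNA interval of 28.2 to 60.7% overlaps that of tRNA genes in the pooled and replicate 3 lists. Neighbouring tRNA or snoRNA genes can share a summit, as the U6 genes do.

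By class, the optimal summits lay at 2 of the 5 U1 genes, 1 of the 3 U4 genes, 2 of the 3 U6 genes and 1 of the 2 7SK genes. None of the 6 U2 genes had one, where the Wilson interval reaches 39%, and none of the 7 U5 genes, where it reaches 35.4%. U11, U12, U4atac, U6atac, U7 and LU, with 1 gene each, had none either. Pooled summits lay at 3 U1 genes, 2 U2 genes, 1 U4 gene, 1 U5 gene, all 3 U6 genes, U11, U12, U7 and 1 7SK gene. The class counts in replicate 2 were 4 for U1, 1 for U2 and 3 for U6, and in replicate 3 they were 4, 2 and 3. U12 had a summit in replicate 2 and none in replicate 3. With classes of 1 to 7 genes the intervals are wide, and no order of the classes can be read from these counts.

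**Figure D2:**
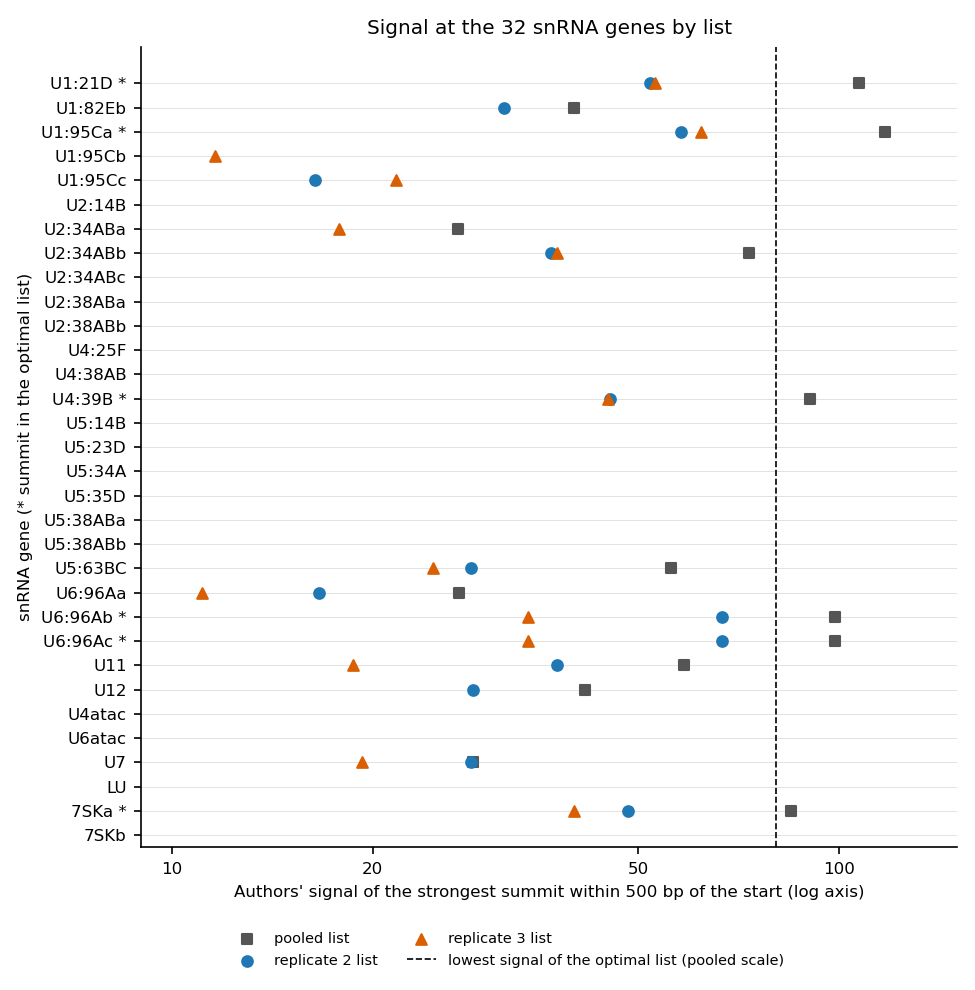
Authors' signal, on a log axis, of the strongest summit within 500 bp of each of the 32 snRNA gene starts, by list; a row with no point had no such summit, an asterisk marks genes with an optimal summit, and the dashed line is the lowest signal of the optimal list. The 6 marked genes lie at pooled signals from 84.7 to 117, just to the right of the line, and 16 rows are empty.

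The U1 genes held the strongest of these summits. U1:95Ca (FBgn0004185, chr3R:23859467-23859630, minus strand) had its optimal summit at 23859563, 67 bp downstream of the start, with a signal of 117 and rank 2369 of 3816. In replicate 2 the summit lay 77 bp downstream with a signal of 58 (rank 2759), and in replicate 3 it lay 11 bp downstream with 62 (rank 1823). The gene thus ranked among the strongest 3816 summits of both replicates, though its summit moved by 66 bp between them. The nearest start of any other gene, that of Pli, was 30489 bp from the optimal summit.

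U1:21D (FBgn0003916, chr2L:901491-901654, minus strand) had an optimal signal of 107 (rank 2648) at 901509, 145 bp downstream of the start and close to the 3′ end of the gene. Replicate 2 gave a signal of 52.1 (rank 3136) at 155 bp and replicate 3 a signal of 53 (rank 2384) at 147 bp. The replicates placed this summit within 8 bp of each other. The nearest other start, 573 bp from the summit, was that of scaRNA:MeU1:95C-A24, a guide RNA gene whose name refers to modification of U1 itself.

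The 3 other U1 genes had no optimal summit. U1:82Eb had a pooled signal of 40.1 (rank 9174 of 24209) 151 bp downstream of its start and 31.5 in replicate 2 at 158 bp, but no summit within 500 bp in replicate 3, where the nearest lay 823 bp upstream. U1:95Cc and U1:95Cb lie 1536 bp apart inside CG34355, on its strand. Around U1:95Cc replicate 2 had a signal of 16.4 at 55 bp upstream and replicate 3 had 21.7 at 290 bp upstream, with a start of lncRNA:CR43285 372 bp and 137 bp from those summits. U1:95Cb had 1 summit, in replicate 3, with a signal of 11.6 at 334 bp downstream. The U1 copies with identical RNA therefore ranged from an optimal summit at U1:21D and U1:95Ca to no pooled summit at U1:95Cb. Both optimal summits lay inside the gene, where 0% of 31-base stretches occurred once in the assembly at each of these copies. How reads were placed among the copies is not given, and its part in this difference was not tested. Over the 100 bases upstream of the start, the 5 U1 genes were 59.6% to 67.6% identical in pairs.

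The U6 genes lie in 1 cluster of 3 over 1234 bp. U6:96Ab (FBgn0004189, chr3R:24556692-24556798, plus strand) and U6:96Ac (FBgn0004190, chr3R:24557215-24557321, plus strand) shared the optimal summit at 24557099, 407 bp downstream of the first start and 116 bp upstream of the second. It lay between the genes, in neither of them, and its signal was 98.5 (rank 2968). In replicate 2 the signal was 66.7 (rank 2315 of 28005), 121 bp upstream of U6:96Ac. In replicate 3 it was 34.2 (rank 4574 of 27103), 76 bp upstream of U6:96Ac. This summit was thus among the 3816 strongest of replicate 2 and outside them in replicate 3. The nearest other start, of tRNA:Asp-GTC-1-11, was 1797 bp away.

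U6:96Aa, the third copy, lies inside Esyt2 and had weaker summits upstream of its start. The pooled signal was 26.9 (rank 18701) at 243 bp upstream, with 16.6 in replicate 2 at 257 bp and 11.1 in replicate 3 at 237 bp, near the lowest signal of that list. Its position was similar in both replicates, and its rank was in the weaker 50% of the pooled list.

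**Figure D3:**
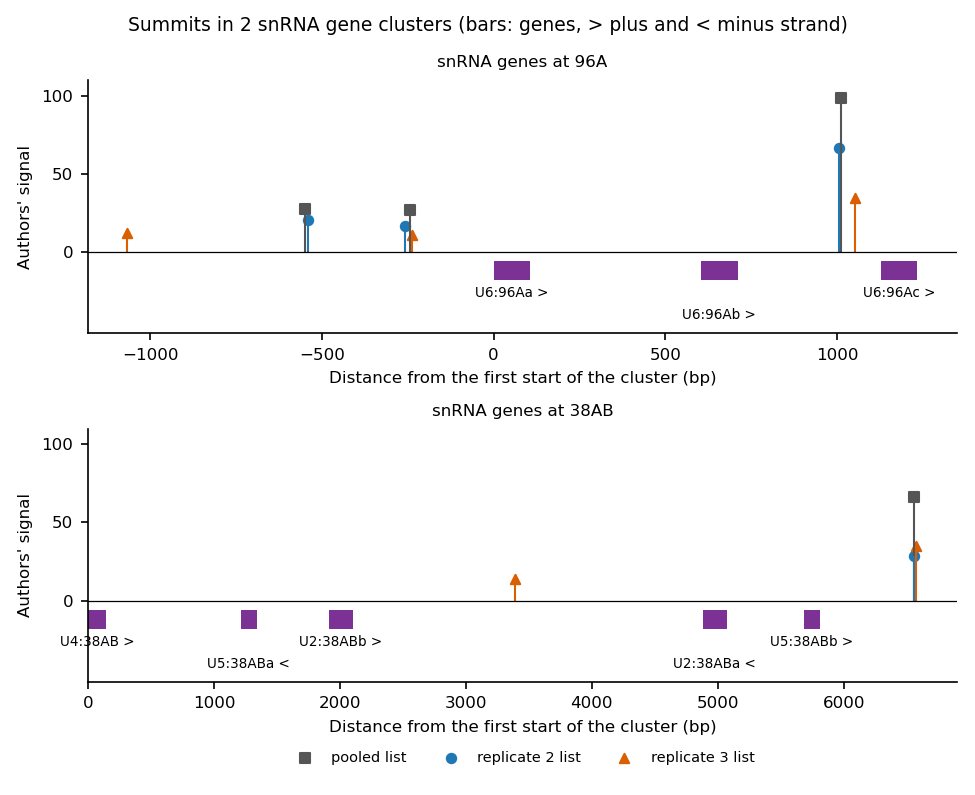
Signal of every summit, on a linear axis, against distance in bp from the first snRNA gene start in the U6 cluster at 96A and in the cluster of 5 genes at 38AB; purple bars are the genes and the markers are the pooled, replicate 2 and replicate 3 lists. At 96A the summit with a pooled signal of 98.5 stands between U6:96Ab and U6:96Ac, and at 38AB the nearest pooled summit, with a signal of 66, lies 874 bp beyond the start of U5:38ABb.

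U4:39B (FBgn0003930, chr2L:21215036-21215178, minus strand), which lies inside Atg18b on the same strand, was the U4 gene with an optimal summit. The summit at 21215169 lay 9 bp downstream of the start and had a signal of 90.3 (rank 3317). Replicate 2 gave 45.3 (rank 3695) at 54 bp and replicate 3 gave 45 (rank 3091) at 3 bp. The nearest other start, of CG8679, was 3375 bp away. U4:38AB and U4:25F had no summit within 500 bp in any list, although U4:38AB was 94.4% identical to U4:39B.

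7SKa (FBgn0065099, chr3R:7474553-7474996, minus strand) is the longest of the genes with an optimal summit, at 444 bases, and its summit at 7474757 lay inside the gene, 239 bp from the start. The signal was 84.7 (rank 3567), close to the lowest signal of the list. Replicate 2 gave 48.3 (rank 3417) at the same base and replicate 3 gave 40 (rank 3666) at 191 bp. The nearest other start, of CG1142, was 976 bp away. 7SKb, which lies inside CG4374 on the opposite strand, had no summit within 500 bp in any list. It was 49.7% identical to 7SKa, no closer than the 50% of their upstream stretches.

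A further 8 genes had a pooled summit without an optimal one, the first of them U1:82Eb and U6:96Aa as given above. U2:34ABb had the strongest, with a pooled signal of 73.1 (rank 4300) 195 bp downstream of its start, just past the 3′ end of the gene. Its signals were 37 in replicate 2 at 148 bp and 37.7 in replicate 3 at 234 bp. U11 had a pooled signal of 58.6, with 37.8 in replicate 2 and 18.7 in replicate 3. It lies inside Fie on the opposite strand, whose start was 306 bp from the pooled summit. U5:63BC was the U5 gene with a summit, with a pooled signal of 56, 28.1 in replicate 2 and 24.6 in replicate 3. These 3 summits lay 79 to 86 bp downstream of its start, inside the gene.

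U12, inside Baldspot on the opposite strand, had 41.6 in the pooled list at 148 bp downstream and 28.3 in replicate 2 at 147 bp, while the nearest summit of replicate 3 lay 2328 bp upstream. U7, inside Eip63E, had 28.3 in the pooled list, but the position went from 343 bp upstream there to 416 bp upstream in replicate 2 (signal 28.1) and 14 bp upstream in replicate 3 (signal 19.3). The replicates of U7 therefore did not mark the same place. U2:34ABa had 26.8 in the pooled list at 186 bp downstream and 17.8 in replicate 3 at 178 bp, with the start of CG15482 116 bp from the pooled summit, and no summit within 500 bp in replicate 2.

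For 16 of the 32 genes no list had a summit within 500 bp of the start. These were U2:14B, U2:34ABc, U2:38ABa, U2:38ABb, U4:25F, U4:38AB, U5:14B, U5:23D, U5:34A, U5:35D, U5:38ABa, U5:38ABb, U4atac, U6atac, LU and 7SKb. Several of them lie close to one another. The cluster at 38AB, 5 genes of the U2, U4 and U5 classes over 5807 bp inside sick, had no summit within 500 bp of any start. Its nearest pooled summit, with a signal of 66 (28.4 in replicate 2 and 34.7 in replicate 3), was 874 bp from the start of U5:38ABb. U2:14B and U5:14B, 555 bp apart, had none, nor did U2:34ABc and U5:34A, 287 bp apart, or LU and U5:23D, which lie 1936 bp apart inside FASN2. U4atac lies inside cno, and U6atac has the start of CG42819 393 bp from its own.

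The window of 500 bp divided genes at a narrow margin in 1 case. U6:96Ab was the outermost gene counted in the optimal list, at 407 bp. U5:35D lay just outside, at 511 bp, with a signal of 189 (rank 1152 of 3816), 109 in replicate 2 at 507 bp and 75.9 in replicate 3 at 519 bp. That summit was stronger than any of the 5 counted. It lay downstream of the start of U5:35D and outside the gene, which is 126 bases long. The start of Mtr4 lies 581 bp from that of U5:35D, a distance between starts and not from the summit. The next nearest were U6:96Aa at 1011 bp, from the summit shared by the other U6 genes, and U4atac at 3348 bp. Over the 26 genes without an optimal summit the nearest lay 511 to 45732 bp away, with a median of 8858 bp. In the pooled list the nearest summit of the 18 genes without one lay 511 to 14322 bp away, with a median of 2214 bp.

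The optimal summits of snRNA genes lay away from other genes' starts. None of the 5 had the start of another gene within 500 bp, other than that of a second snRNA gene, and none had a protein-coding start there. Of the 5, only the U6 summit was near more than 1 gene, while 56.1% of the 1973 other optimal promoter summits were near 1 gene only. A protein-coding start lay within 500 bp of 95.2% of those 1973. That share counts the gene at the summit itself, so it is not the same measure as the neighbours of snRNA genes. In the pooled list 11 of the 13 summits at snRNA genes had no other start within 500 bp and 2 had a protein-coding one, Fie at U11 and CG15482 at U2:34ABa. Of the other 6974 pooled promoter summits 71.4% were near 1 gene only. A protein-coding start was near 91.1% of them, again counting the gene at the summit. Replicate 2 gave 11 of 13 with no other start and replicate 3 gave 10 of 13. These counts describe where the genes lie and were not tested.

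Position relative to the start is shown in the plot of summits along the genes. Of the 5 optimal summits, 4 lay inside the transcribed stretch, between 9 and 239 bp downstream, and 1 lay upstream, before U6:96Ac. Among the other optimal promoter summits 16.4% (323 of 1973) lay downstream of the nearest start, whether or not inside a gene. Counted by gene and from each gene's own start, which is not the same measure, 5 of the 6 snRNA genes had their optimal summit downstream. That count takes the shared U6 summit at both genes, downstream of U6:96Ab and upstream of U6:96Ac, its nearest start. In the pooled list 8 of 13 summits were inside an snRNA gene, as in replicate 2, and 6 of 13 in replicate 3. By gene and from its own start, 11 of 14 had their pooled summit downstream. Of the other pooled promoter summits 38.9% lay downstream of the nearest start, again not the same measure. The median region was 404 bp wide, and most of these genes are shorter, so that a region over such a gene can cover its promoter as well. Between the replicates the 5 summits moved by 8 to 66 bp.

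**Figure D4:**
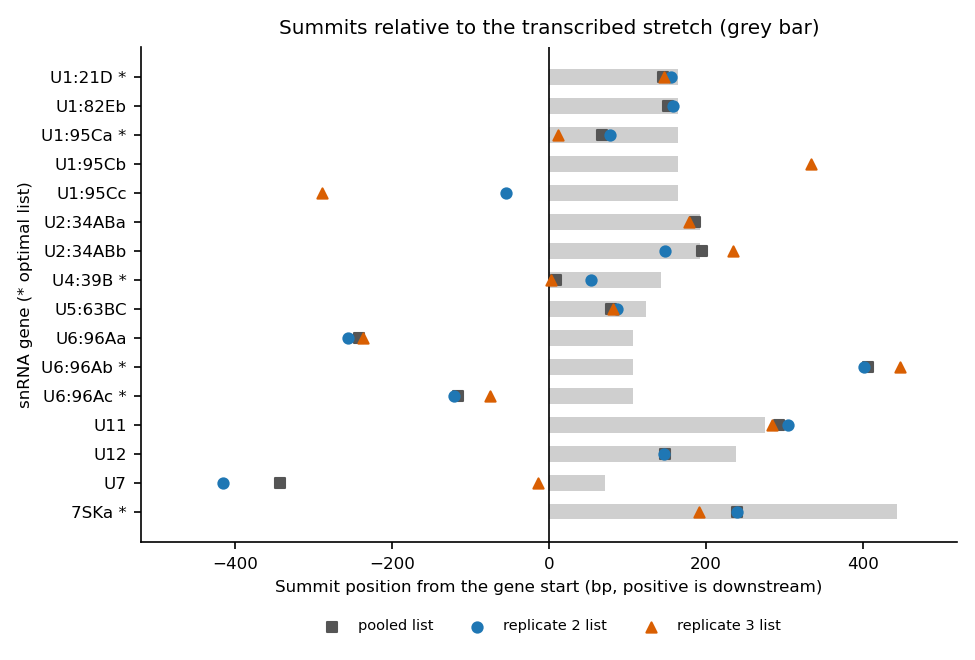
Position of the strongest summit within 500 bp, in bp from the start of each of the 16 snRNA genes that had one, with positive values downstream; grey bars are the transcribed stretches, markers are the lists and an asterisk marks an optimal summit. The summits of U1:21D, U1:82Eb and U5:63BC lie inside the gene in every list that holds them, those of U6:96Aa and U6:96Ac lie upstream, and those of U7 range from 416 to 14 bp upstream.

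The 5 optimal summits were alike in strength. Their signals ran from 84.7 to 117, below the list's median of 136, and their ranks from 2369 to 3567 of 3816. All 5 were thus in the weaker 50% of the list, where the stronger 50% held none at an snRNA gene. At their own ranks in the replicates they ran from 2315 to 3695 in replicate 2 and from 1823 to 4574 in replicate 3. Their −log10 q-value was 3.89 in each case, the highest of the list, whose range is 3.2 to 3.89. Stronger summits had the same value, such as the optimal summit nearest to U7 at rank 720, so it does not set these 5 apart.

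Because copies repeat within a class, reads from the gene itself may not be placed uniquely, and the sources used here do not say how the authors handled such reads. Each stretch was scored by the share of its 31-base words that occur once in the assembly. Over the 500 bp on either side of the start the median was 92% for all 32 genes, 88.3% for the 6 with an optimal summit (84.9 to 100%) and 93.3% for the 16 with no summit in any list (45.4 to 100%). Within the gene it was 0% for 4 of the 6 genes with an optimal summit, namely U1:21D, U1:95Ca, U6:96Ab and U6:96Ac, and 100% for 7SKa. For U4:39B it was 47.8%. The regions called at these summits reached beyond the genes at U1:21D, U1:95Ca, U4:39B and the U6 pair, while that at 7SKa lay wholly inside the gene. These regions held 61.8% unique words at U1:21D, 60.7% at U1:95Ca, 84.2% at U4:39B, 84.5% at the U6 pair and 100% at 7SKa. The lowest window values, 45.4% to 48.9%, belonged to U2:38ABa, U2:34ABc and U2:38ABb, none of which had a summit. Genes that are unique throughout were found in all 3 sets, among them U11 and U12 with a pooled summit and U4:25F, U4atac and U6atac with none. The part of repeated sequence in these counts was not tested.

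**Figure D5:**
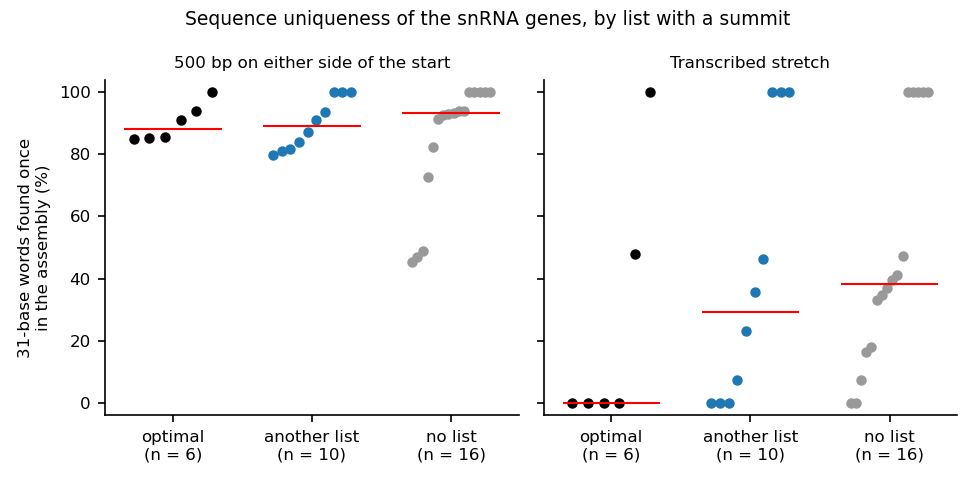
Percent of 31-base words found once in the assembly, per snRNA gene, over 500 bp on either side of the start (left) and over the transcribed stretch (right), for genes with a summit in the optimal list, in another list only or in no list; red lines are medians. The medians of the windows are 88.3%, 89.2% and 93.3%, and those of the genes are 0%, 29.3% and 38.4%.

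The proximal sequence element lay before genes with and without a summit. The core of the proximal sequence element was searched as TTCNCAAC on both strands in the 100 bases before each start and was found at 21 of 32 snRNA genes (65.6%), against 1.43% of other genes. A second form, ATTCNCAA, which shares 7 letters with the first, was added after the sequences had been seen. It was found at 31 of 32 genes (96.9%), against 1.97% of other genes, with its first base 56 to 65 bases before the start and a median of 59. It was present at all 6 genes with an optimal summit, at 25 of the 26 without one and at 15 of the 16 with no summit in any list. 7SKb was the gene that lacked it, as its line above shows. TATAAA was found at 5 snRNA genes (15.6%; U2:34ABc, U6:96Ab, U6:96Ac, U6atac and 7SKa), against 18.9% of other genes, and on the strand opposite to transcription at the first 3. The core ATCGATA of the DRE element was at 0 of 32 snRNA genes, against 9.82% of other genes. The element that Pum binds in RNA, read as TGTANATA, was also at 0 of 32, against 3.16%, and GAGAGAG at 0 of 32, against 2.51%. These are matches of letters in a window and not sites of a factor.

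The polymerase that transcribes each gene was taken from background knowledge and added after the values had been seen. LU was given none and is left out. An optimal summit was at 3 of 25 polymerase II genes and 3 of 6 polymerase III genes, beside 15.3% of other annotated genes. The counts were 10 of 25 and 4 of 6 in each of the other 3 lists, beside 39.9% to 47.1% of other annotated genes. The 3 polymerase III genes of the optimal list are U6:96Ab, U6:96Ac and 7SKa, so the 3 genes hold 2 summits. No test was made, and U6atac and 7SKb, also counted as polymerase III genes, had no summit in any list. 7SKb was counted so by its class name only.

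Genes for the proteins that make and use snRNAs were listed as well, and 29 of 78 (37.2%) had an optimal promoter summit, beside 18.6% of all protein-coding genes. Their signals ran from 84.8 to 797, and 13 of the 29 were in the stronger 50% of the list, where no snRNA gene was. Among all annotated genes other than snRNA genes, 8.74% had a summit in that part and 15.3% in the whole list. For 26 of the 29 the summit was also within 500 bp of another gene's start, so it cannot be assigned to 1 gene. Of the 1973 optimal promoter summits away from snRNA genes, 56.1% were near 1 gene only. In replicate 2, 55 of the 78 genes had a summit, beside 45.1% of protein-coding genes, and in replicate 3, 64 did, beside 52.9%. The lists were chosen with earlier results known, and these shares are a description.

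Transcription factors of snRNA genes had a summit at 5 of 12 (41.7%), beside 18.6% of all protein-coding genes. Bdp1, a subunit of TFIIIB that serves polymerase III, had a signal of 797 (rank 52), shared with CG6565, and reached 514 in replicate 2 and 287 in replicate 3. Brf, also of TFIIIB, had 471 (rank 180), shared with sds22. Ice1, of the little elongation complex at snRNA genes, had 199, shared with vir, and the general factor TfIIB had 128, shared with Bug22. Bdp1 and Brf were therefore far above any snRNA gene in the same list.

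Integrator, which cleaves the 3′ end of polymerase II snRNAs, had a summit at 7 of 14 subunit genes (50%), beside the same 18.6%. IntS6 had a signal of 381 (shared with Rtel1), IntS9 308 (CG43295), defl 161 (nbs) and IntS10 160 (CG32264 and ntc). Of 4 genes of the 7SK snRNP 2 had a summit (50%). The gene bin3, which encodes the enzyme that caps 7SK RNA, had 362 and was near no other start. Larp7, which binds the RNA's 3′ end, had 163, shared with mxc.

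The list of snRNP proteins and associated splicing factors had a summit at 9 of 20 genes (45%), beside 18.6% of all protein-coding genes. The tri-snRNP protein Prp31 had a signal of 184, the polypyrimidine tract factor U2af50 146, Slu7, which acts in the later step of splicing, 138 and noi, a subunit of SF3a in the U2 snRNP, 111. All 9 summits were also near another start, such as that of Msh6 at Prp31, PIG-Q at U2af50, Pkc98E at Slu7 and Vha26 at noi. The Sm and LSm ring proteins had 2 of 12 (16.7%), near the share of protein-coding genes. These were SmB at 87.4 (shared with KdelR) and LSm1 at 98.9 (Xpd), in the range of the snRNA genes. Assembly and transport factors had 4 of 16 (25%), also not far from that share. Smn, the scaffold of the complex that loads Sm rings, stood at 122 and the cap-binding protein Cbp20 at 119. The exportin emb stood at 97.1 and icln, which chaperones Sm proteins, at 93.1. These 4 also had another start within 500 bp.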

How the data were processed

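Peak lists of Pum-eGFP ChIP-seq from replicates 2 and 3 were used as deposited on dm6, as 4 lists named optimal, pooled, replicate 2 and replicate 3. Per the labels and the deposited file listing they were made from the alignments and 1 further file. The sources used here do not give the caller, its settings or the read length. The deposited signal of each region is the authors' value on a scale that is not stated, and the authors' −log10 q-value ranges from 0.0177 to 3.89 in the pooled list, so that list holds background regions. The optimal list holds the regions past the authors' reproducibility threshold. The dm3 lists were not used.

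Where summits lay within 250 bp of each other, the strongest was kept. Gene starts were all transcript starts of Ensembl release 115 (BDGP 6.54), without transposable elements, and all 32 snRNA genes had the same coordinates in RefSeq. Motifs were searched over 100 bases and words of 31 bases were counted over the whole assembly. Every snRNA gene is named, those with an optimal summit with full values, and up to 4 strongest genes of each pathway list; neighbours are named where they share a summit or are nearest. The members and lists were chosen with earlier results of these data known, so no test was made, and 95% Wilson intervals cover counting error only. Of 87 pathway symbols 6 were not matched. The sequences of the U6 genes are not reported here. The counting code was tested on simulated data. Python 3.11.15 was used with numpy 2.4.6, pandas 2.3.3, scipy 1.17.1, Biopython 1.88 and matplotlib 3.10.9.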

Additional observations from a re-analysis of the deposited data

How the results depend on the processing

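Of 12 alternative settings for the optimal count of 6 genes, 11 gave 4 to 7. The share of other genes moved with the setting. It was 9.16% where the region had to overlap the start (4 snRNA genes) and 20.6% where the gene and 500 bp on either side counted (7 snRNA genes). With the stronger 50% of the list the count was 0, beside 8.74% of other genes. From the 3816 strongest summits of 1 replicate the count was 4 to 6, beside 15.3% of other genes for either replicate. Without replicate 2 the pair U6:96Ab and U6:96Ac dropped out, because their summit ranks 4574 in replicate 3. A window of 1000 bp gave 7, adding U5:35D, beside 18.3% of other genes. When the called region had to overlap the start, the pooled count was 9, that of replicate 2 was 9 and that of replicate 3 was 8, against 14 in each. The share of other genes fell as well, to 26.6%, 23.1% and 31.5%, and the cause was not tested. The other 5 settings of each of these lists stayed within 1.5 times. No paired analysis was possible because there is 1 group. Depth is unknown, so a gene without a summit was not shown to be unbound.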
